A study of Mus musculus with 8 samples.

Results

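Cytosolic translation factors are the proteins that bring the ribosome to a messenger RNA, find the start codon and then move the ribosome along the coding sequence. The genes described here are the nuclear genes of the initiation factors (eIF), the elongation factors eEF1 and eEF2, the eIF4E-binding proteins, the kinase of eEF2 and the methyltransferases of elongation factors. They were chosen by name: protein-coding genes whose symbol starts with Eif and a digit, with Eef1 or with Eef2, leaving out the eIF2α kinases. The rule found 67 of 55383 genes in the table of normalized counts, and 62 of them had enough counts to be tested among 14522 genes.

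Initiation starts when eIF2 carries the initiator tRNA to the small ribosomal subunit, where eIF1, eIF1A, eIF3 and eIF5 also bind, and when eIF4F (the cap-binding eIF4E, the scaffold eIF4G and the helicase eIF4A) brings in the messenger RNA. In elongation, eEF1A delivers aminoacyl-tRNA, eEF1B recharges eEF1A with GTP and eEF2 moves the ribosome to the next codon. Cells regulate both steps through phosphorylation: of eIF2α by stress kinases, of the eIF4E-binding proteins by mTORC1, and of eEF2 by its kinase. RNA levels do not show these phosphorylations.

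The study deleted Ssbp1, the gene of the mitochondrial single-stranded DNA-binding protein, and measured total RNA of hearts from mice at about 5 weeks of age on a C57BL/6N background. The labels give 2 hearts as Ssbp1+/+ (control) and 2 as Ssbp1-/- (knockout). Per the study's methods, the knockout removes a floxed exon by a Cre recombinase under the muscle creatine kinase promoter (Ckmm-cre), which acts in heart and skeletal muscle, so other cells of the heart should keep the gene, and the controls carried the floxed alleles without Cre. The labels do not state which mice carried Cre. The mice numbered 585H and 586H have a title and a genotype field that contradict each other, so they entered no comparison.

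The 4 libraries held 19716305 to 25682093 estimated reads. Of these, 6568812 to 8981637 (control hearts) and 10734547 to 11259234 (knockout hearts) fell on nuclear genes. The mitochondrial share of reads was 62.7% and 66.7% in control hearts and 58.0% and 56.2% in knockout hearts, so depth over nuclear genes moved with genotype, and its part in the results was not tested. Ssbp1 itself had 177 and 216 normalized counts in control hearts and 170 and 163 in knockout hearts, both knockouts being the lower, with a log2 fold change of -0.23 ± 0.16 (SE) and a limma adjusted p of 0.890. A count over the whole gene cannot be read for the deleted exon, so it checks the labels poorly. The 7 cardiomyocyte markers gave summed normalized counts of 572641 to 606257 across the 4 hearts, and the 5 skeletal muscle markers gave no more than 12.4. The 5 red blood cell markers summed to 18944 and 14398 in control hearts and to 14926 and 41866 in knockout hearts, so the blood signal was high in knockout replicate 2 and its part in the results was not tested. The 5 fibroblast markers summed to 12321 and 11740 in control hearts and to 9106 and 10997 in knockout hearts. Their median log2 fold change was -0.25, but Tcf21 lay the other way at 0.26. The medians were -0.27 for 3 smooth muscle markers, -0.09 for 4 macrophage markers and 0.05 for 4 endothelial markers. The macrophage markers were mixed: Cd68 -0.86, C1qa -0.23, Adgre1 0.05 and Csf1r 0.07. None of these markers was called, and the part of these cell types was not tested either. In whole hearts, fewer cells of a type and less RNA per cell cannot be told apart.

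By limma, no translation factor gene passed the threshold in either direction. A limma fit on log2(normalized count + 1) over all tested genes, with Benjamini-Hochberg adjustment at 0.05, called 0 of 62 members higher and 0 lower, where it called 0.0757% of all genes higher and 0.0413% lower. edgeR on the reads behind the normalized counts called 0 members higher (0.0895% of all genes), and DESeq2 called 1, Eif3c (0.296% of all genes). Both tools called 0 members lower. At an unadjusted limma p under 0.05, 6 members were higher, against 3.08% of all genes, and 0 were lower, against 3.02%. The 6 were Eif3c, Eif2s2, Eef1a1, Eef2, Eif4b and Eif5, and none of them passed adjustment. Leaving out each heart in turn moved none of these 6 fold changes by over 1.5 times. The 6 were picked by p on these same hearts, which favours steady values, so this is no separate support for them. Of the 62 members, 49 moved by over 1.5 times or changed sign, so most fold changes depended on single hearts. These included the largest, that of Eif3j2, and values near 0 pass the limit easily. All fold changes and adjusted p-values that follow are from limma, as knockout against control with 2 hearts each, on the log2(normalized count + 1) scale.

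Across the members, more lay above the controls than below them. Both knockout hearts exceeded both controls for 26 of the 62 members, where 18.1% of all tested genes did so. Both lay under both controls for 8 members, where 17.5% of all genes did, and the groups overlapped for 28. The median log2 fold change was 0.07 over the members and 0.002 over all tested genes, and the members ranged from -0.34 (Eif4enif1) to 0.80 (Eif3j2). The summed normalized counts of the 67 members made up 0.771% and 0.772% of those of all nuclear genes in control hearts and 0.825% and 0.863% in knockout hearts. The sum itself was 67648 and 68297 in control hearts and 72979 and 74360 in knockout hearts. The eEF1A, eEF1B and eEF2 genes (Eef1a1, Eef1a2, Eef1b2, Eef1d, Eef1g and Eef2), set apart after their values were seen, held 25932 and 25539 normalized counts in control hearts and 29951 and 30130 in knockout hearts, or 38.3% and 37.4% of the members' sum in control hearts and 41.0% and 40.5% in knockout hearts.

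**Figure D1:**
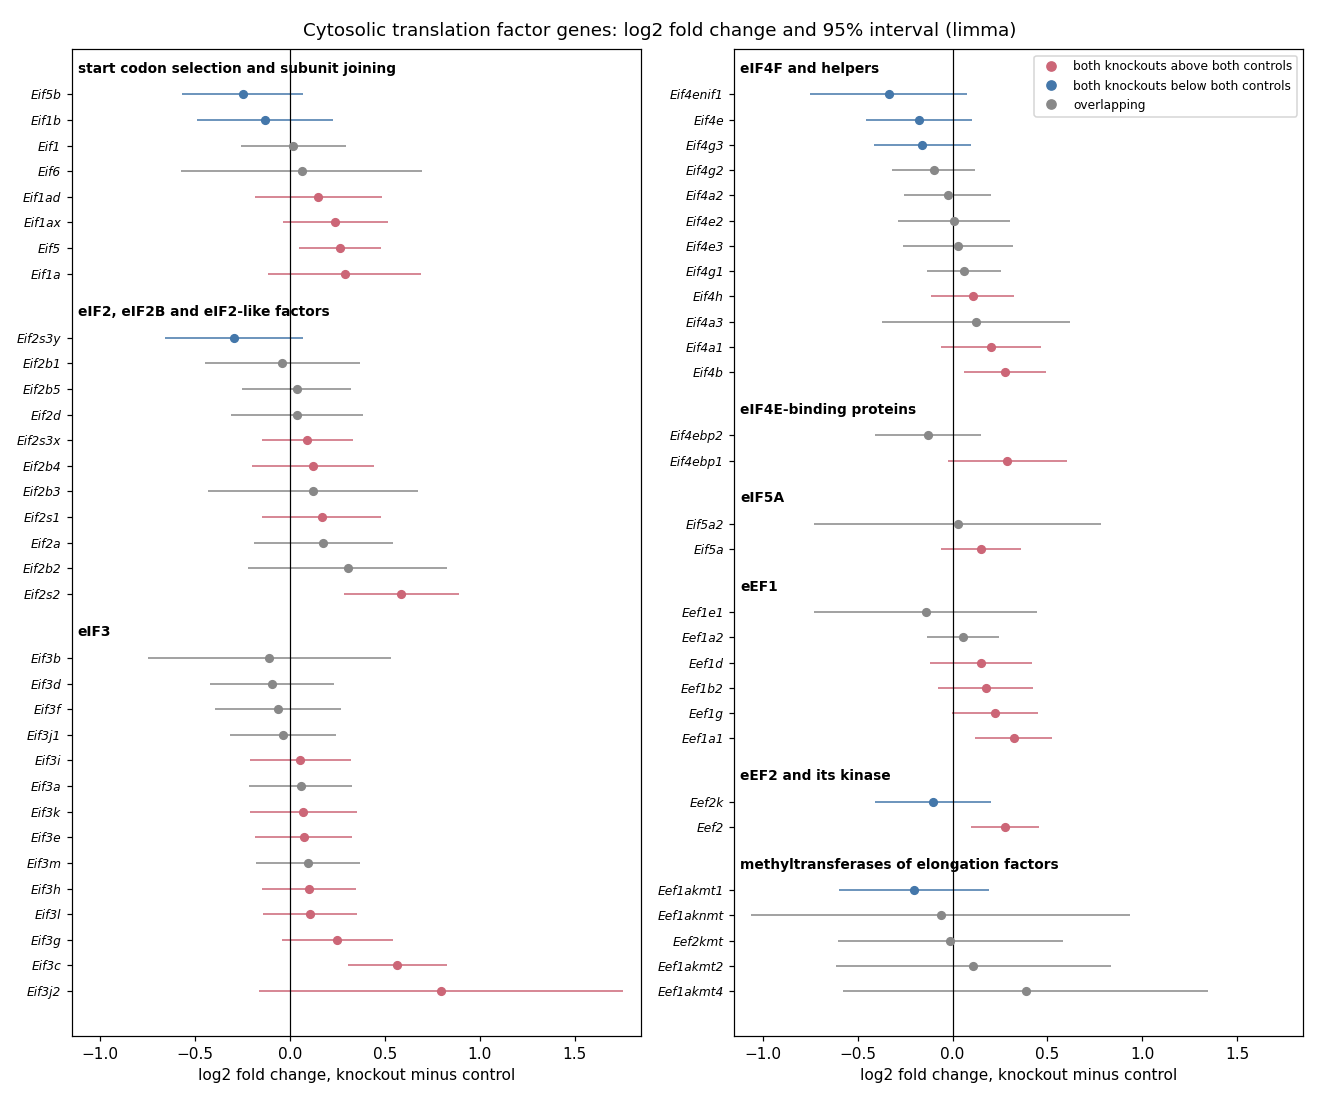
Log2 fold change of each tested member (x axis, knockout minus control), by role, with its 95% interval from limma; red points have both knockouts above both controls, blue points both below, and grey points overlap. Most points lie within 0.3 of 0, and 6 intervals do not reach 0, among which Eif3c and Eif2s2 lie farthest to the right.

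**Figure D2:**
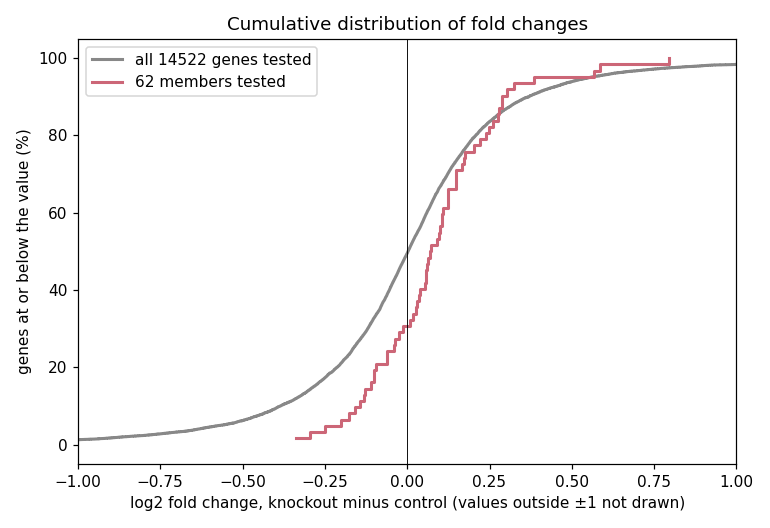
Cumulative percentage of genes (y axis) at or below each log2 fold change (x axis) for the 62 members and for all 14522 tested genes. The curve of the members runs to the right of the curve of all genes around 0, with medians of 0.07 and 0.002.

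Among the genes of eIF2, Eif2s2 stood apart from its partners. Eif2s2 encodes eIF2β, the subunit that contacts eIF5 and eIF2B. The gene lies on the minus strand of chromosome 2 (GRCm38, 154871410 to 154892935). It had 483 and 578 normalized counts in control hearts and 811 and 776 in knockout hearts. Both knockouts were well above both controls, by a log2 fold change of 0.59 ± 0.13 (SE; 95% interval 0.28 to 0.89), with an adjusted p of 0.530, and by 0.62 without knockout replicate 2. These values rest on 494 and 429 estimated reads in control hearts and 985 and 1014 in knockout hearts.

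Eif2s1, which encodes the eIF2α subunit that stress kinases phosphorylate, had 381 and 446 normalized counts in control hearts and 450 and 477 in knockout hearts. The knockouts were above the controls by little, with a log2 fold change of 0.17 (95% interval -0.15 to 0.48). The γ subunit has an X-linked and a Y-linked gene. Eif2s3x had 973 and 1074 normalized counts in control hearts and 1078 and 1099 in knockout hearts, a log2 fold change of 0.09. Eif2s3y had 495 and 640 in control hearts and 457 and 459 in knockout hearts, so both knockouts were lower, by a log2 fold change of -0.30 ± 0.15 (SE; 95% interval -0.66 to 0.07; adjusted p = 0.815), a value that ran from -0.48 to -0.11 according to which control heart was left out.

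Because a share within a heart does not depend on how libraries are scaled, the genes of a complex were also compared with each other. Eif2s2 made up 20.7% and 21.1% of the normalized counts of the eIF2 genes in control hearts and 29.0% and 27.6% in knockout hearts. The share did not overlap between the groups (log2 ratio of Eif2s2 to the other eIF2 genes higher by 0.58, exact permutation p = 0.333, two-sided, the smallest that 2 hearts against 2 allow). The share of Eif2s3y in the X- and Y-linked pair was 33.7% and 37.3% in control hearts and 29.8% and 29.5% in knockout hearts, again without overlap (exact permutation p = 0.333). These shares were set beside one another after their genes' values were seen.

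The other 7 genes of this group, the subunits of the guanine nucleotide exchange factor eIF2B and the eIF2-like factors, had adjusted p-values of 0.890 or more. Of these the lowest p was for Eif2b2, which encodes eIF2Bβ, with 113 and 84.9 normalized counts in control hearts and 131 and 112 in knockout hearts. The ranges of Eif2b2 overlapped, and its log2 fold change was 0.30 (95% interval -0.22 to 0.83).

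The 14 genes of eIF3, the scaffold of the initiation complex on the small subunit, included the member with the smallest p. Eif3c, a core subunit, lies on the minus strand of chromosome 7 (GRCm38, 126546455 to 126566411). It had 839 and 966 normalized counts in control hearts and 1349 and 1317 in knockout hearts. The knockouts lay above the controls and close to each other, with a log2 fold change of 0.57 ± 0.11 (SE; 95% interval 0.31 to 0.83), a 1.48-fold difference. The adjusted p was 0.391 with limma, 0.361 with edgeR and 0.017 with DESeq2, so the call depended on the tool, and the log2 fold change was 0.58 without knockout replicate 2. Of the 31-base words in the transcripts of Eif3c (GENCODE vM21), 10.5% also occur in transcripts of another gene, mostly Gm11224, and 12.4% of those of Eif2s2 do. Some other members share more, such as Eef1g (47.6%), Eif2s3x (35.3%) and Eif4a1 (31.1%). Their counts, and the shares that use them, depend more on how reads were assigned.

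No other eIF3 subunit showed a difference of that size with comparable precision. Eif3g had 301 and 313 normalized counts in control hearts and 375 and 355 in knockout hearts, a log2 fold change of 0.25 (95% interval -0.04 to 0.54). Eif3l had 559 and 548 in control hearts and 591 and 599 in knockout hearts, a log2 fold change of 0.10. Eif3j2, a copy of Eif3j1, had the largest fold change of all members at 0.80, from 19.5 and 16.2 normalized counts in control hearts and 39.5 and 25.2 in knockout hearts, but its 95% interval ran from -0.16 to 1.76. Of the 31-base words in Eif3j2, 94.0% also occur in Eif3j1, so the split of reads between these genes is uncertain. Both knockouts were above both controls for 8 of the 14 eIF3 genes and below for 0 (18.1% and 17.5% of all tested genes), and the median log2 fold change was 0.07.

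Within eIF3, the share of Eif3c had the widest gap between the groups. It made up 10.2% and 10.9% of the summed normalized counts of the eIF3 genes in control hearts and 15.1% and 14.0% in knockout hearts (exact permutation p = 0.333, the smallest possible). Eif3c was singled out by its p on these same hearts, so its share is no separate support. Of the 14 genes, 3 had a share that was higher in both knockouts (Eif3c, Eif3g and Eif3j2), 3 had one that was lower (Eif3d, Eif3f and Eif3j1), and 8 overlapped. By normalized counts, 18.1% of all tested genes lay above in both knockouts and 17.5% below. Shares of one sum are tied, so the higher share of Eif3c lowers the others. Eif3a, the most counted of these genes, made up 23.5% and 21.8% in control hearts and 20.4% and 23.3% in knockout hearts, so its groups overlapped. Eif3b had 348 and 625 normalized counts in the controls, a wide spread, and 440 and 425 in the knockouts.

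**Figure D3:**
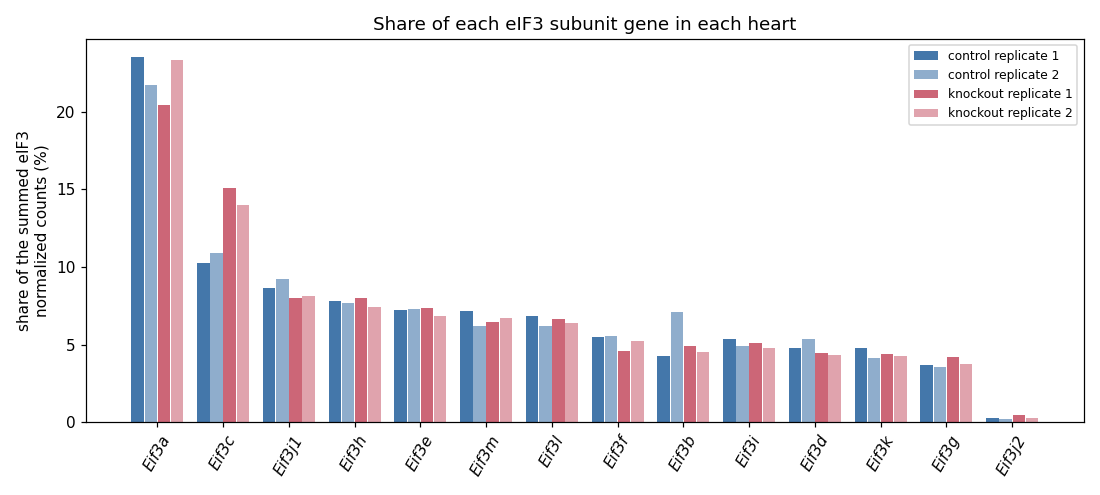
Share of each eIF3 subunit gene in the summed eIF3 normalized counts (y axis, %) for each of the 4 hearts (bars; blue controls, red knockouts). Eif3c stands at 10.2% and 10.9% in the controls and at 15.1% and 14.0% in the knockouts, while Eif3a and Eif3b vary as much within a group as between them.

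Of the 8 factors of start codon selection and subunit joining, Eif5 had the smallest p. Eif5 encodes the GTPase-activating protein of eIF2, with 1276 and 1339 normalized counts in control hearts and 1594 and 1542 in knockout hearts. Both knockouts were above both controls, by a log2 fold change of 0.26 ± 0.09 (SE; 95% interval 0.05 to 0.48; adjusted p = 0.773). The genes of eIF1A, which binds the decoding site, lay the same way: Eif1ax had 578 and 574 in control hearts and 727 and 636 in knockout hearts, and Eif1a had 131 and 140 in control hearts and 153 and 179 in knockout hearts. Their 95% intervals included 0.

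Eif5b, the GTPase that joins the ribosomal subunits, lay the other way. It had 597 and 695 normalized counts in control hearts and 506 and 581 in knockout hearts, a log2 fold change of -0.25 (95% interval -0.57 to 0.07; adjusted p = 0.833). Of the 8 genes of this group, 4 had both knockouts above both controls (18.1% of all tested genes), 2 (Eif5b and Eif1b) had both below (17.5%), and 2 (Eif1 and Eif6) overlapped.

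Among the 15 genes of eIF4F and its helpers, 12 were tested and their median log2 fold change was 0.02. Eif4b, which encodes the RNA-binding cofactor of the helicase eIF4A, had 1437 and 1539 normalized counts in control hearts and 1784 and 1823 in knockout hearts. Both knockouts were above both controls, by a log2 fold change of 0.28 ± 0.09 (SE; 95% interval 0.06 to 0.49; adjusted p = 0.750). Eif4a1, the widely expressed eIF4A gene, had 1429 and 1238 in control hearts and 1475 and 1592 in knockout hearts, a log2 fold change of 0.20 (95% interval -0.06 to 0.47). Its share of the summed Eif4a1 and Eif4a2 counts was 36.9% and 31.2% in control hearts and 36.2% and 39.1% in knockout hearts, and the groups overlapped (exact permutation p = 0.667).

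Eif4e, which encodes the cap-binding protein, Eif4enif1 and the Eif4g genes lay on the other side of 0 or near it. Eif4e had 948 and 1094 normalized counts in control hearts and 946 and 858 in knockout hearts, a log2 fold change of -0.18 (95% interval -0.46 to 0.11). Eif4enif1, which encodes the eIF4E transporter that moves eIF4E into the nucleus, had 451 and 504 in control hearts and 325 and 438 in knockout hearts. Its log2 fold change was -0.34 (95% interval -0.75 to 0.08), but -0.12 without knockout replicate 1 and -0.55 without knockout replicate 2, so its size depended on single hearts. Of the Eif4g genes, Eif4g1 had a log2 fold change of 0.06, Eif4g2 of -0.10 and Eif4g3 of -0.16, each with an adjusted p of 0.878 or more.

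**Figure D4:**
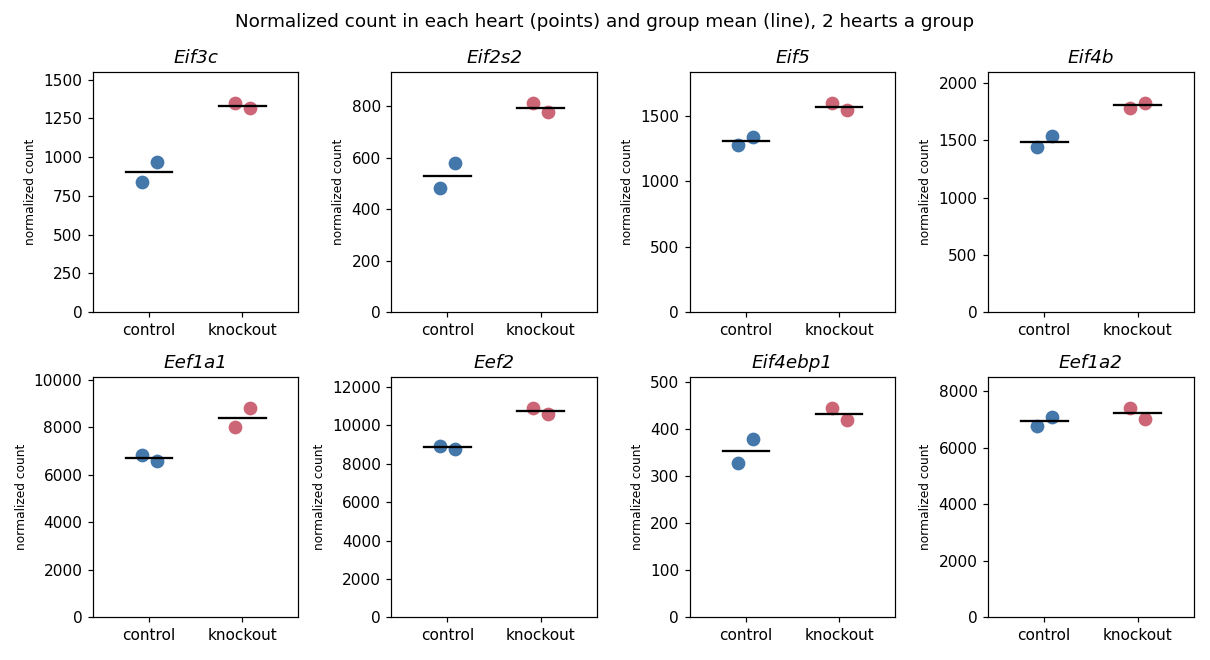
Normalized count (y axis, from 0) of 8 members in each heart (points) with the mean of the 2 hearts of each group (line). Both knockouts lie above both controls in every panel except Eef1a2, whose groups overlap.

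Of the eIF4E-binding proteins, which hold eIF4E away from eIF4G when they are not phosphorylated, Eif4ebp1 and Eif4ebp2 differed in sign. Eif4ebp1 had 327 and 379 normalized counts in control hearts and 443 and 418 in knockout hearts. Both knockouts were above both controls, by a log2 fold change of 0.29 ± 0.13 (SE; 95% interval -0.03 to 0.60; adjusted p = 0.809), or 0.18 without control replicate 1. Eif4ebp2 had 724 and 640 in control hearts and 600 and 646 in knockout hearts, which overlapped, with a log2 fold change of -0.13 (95% interval -0.41 to 0.15). Eif4ebp3 was counted in 1 heart of each group, with 14 reads in control replicate 1, 7 in knockout replicate 1 and 0 in the other hearts. By counting alone, a 0 allows up to 3 reads. Of the 31-base words of Eif4ebp3, however, 66.4% also occur in AC115631.1, so its values, zeros included, depend on how reads were assigned. Eif4ebp3 was not tested.

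Eif4ebp1 thereby made up 30.7% and 37.2% of the counts of the 3 genes in control hearts and 42.3% and 39.3% in knockout hearts. The groups did not overlap, with a gap from 37.2% to 39.3%, and the exact permutation p was 0.333, the smallest possible. The 5 genes whose pattern over the 4 hearts was nearest to that of Eif4ebp1, among 10625 others averaging 50 normalized counts or more, were Fam174a, Pigk, Tmem234, Wars (tryptophanyl-tRNA synthetase) and Zfp280b, by Euclidean distance of log2 values from each gene's control mean. Those distances ran from 0.0172 to 0.0402, with no distances for other genes set beside them. With only 4 hearts and so many genes, close patterns are easy to find, so shared regulation cannot be read from this list.

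Eef1a1, Eef1a2 and Eef2 had the highest levels per length among the members. Per kilobase of a representative transcript, the control means were 3742 normalized counts for Eef1a1, 3326 for Eef1a2 and 2866 for Eef2, and the next was Eif4a2 at 2108. Most initiation factors were far lower, such as Eif3c at 267 and Eif2s2 at 229.

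Eef1a1, the widely expressed eEF1A gene, had 6832 and 6593 normalized counts in control hearts and 8023 and 8787 in knockout hearts. Both knockouts were above both controls, by a log2 fold change of 0.32 ± 0.08 (SE; 95% interval 0.12 to 0.53; adjusted p = 0.653), and by 0.26 without knockout replicate 2. Of its 31-base words, 49.8% also occur in transcripts of other genes, the most of them (33.8%) in Gm13456, against 21.2% for Eef2, so the count of Eef1a1 depends more on how reads were assigned. Its paralog Eef1a2 is the form that adult muscle, heart and neurons express. Eef1a2 had 6772 and 7092 in control hearts and 7383 and 7028 in knockout hearts, which overlapped, and its log2 fold change of 0.06 had a 95% interval of -0.14 to 0.25.

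The balance of the paralogs within a heart followed from these values. Eef1a2 made up 49.8% and 51.8% of the summed Eef1a1 and Eef1a2 counts in control hearts and 47.9% and 44.4% in knockout hearts. The groups did not overlap (mean 50.8 ± 1.44% against 46.2 ± 2.46%, SD, n = 2 each; exact permutation p = 0.333, two-sided, the smallest possible), and the log2 ratio of Eef1a2 to Eef1a1 was lower by 0.27 in the knockouts, from -0.37 to -0.17 as each heart was left out in turn.

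**Figure D5:**
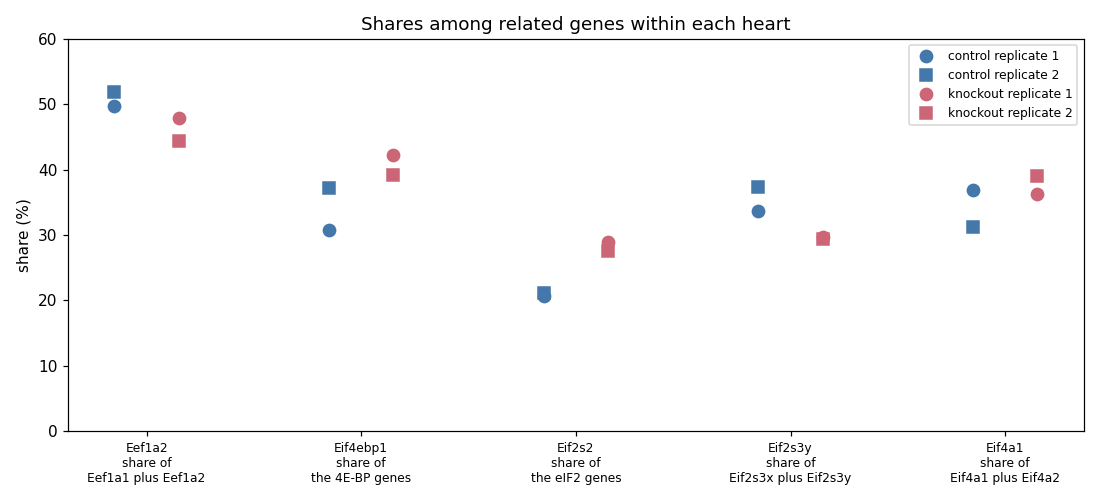
Shares among related genes within each heart (y axis, %): circles are replicate 1 and squares replicate 2, blue controls and red knockouts. The Eif2s2 share has the widest gap between groups, from 21.1% to 27.6%, and the Eif4a1 share overlaps.

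The eEF1B genes, whose products exchange GDP for GTP on eEF1A, all had both knockouts above both controls. Eef1g had 1826 and 1642 normalized counts in control hearts and 2017 and 2022 in knockout hearts, a log2 fold change of 0.22 (95% interval -0.004 to 0.45). Eef1b2 had 770 and 705 in control hearts and 848 and 814 in knockout hearts, a log2 fold change of 0.17, and Eef1d had 795 and 738 in control hearts and 803 and 899 in knockout hearts, a log2 fold change of 0.15. The intervals of all 3 included 0, and their adjusted p-values were 0.806 to 0.890. Both knockouts were above both controls for 4 of the 6 Eef1 genes (18.1% of all tested genes), and Eef1a2 and Eef1e1 overlapped.

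Eef2, the translocase, had 8938 and 8769 normalized counts in control hearts and 10876 and 10580 in knockout hearts. The hearts of each group lay close together, and the log2 fold change was 0.28 ± 0.07 (SE; 95% interval 0.10 to 0.46; adjusted p = 0.664), or 0.30 without knockout replicate 2. The kinase that phosphorylates and slows eEF2, Eef2k, had 317 and 349 normalized counts in control hearts and 306 and 313 in knockout hearts, a log2 fold change of -0.10 (95% interval -0.41 to 0.20).

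The remaining genes differed little or were too low to judge. Eif5a, whose hypusine-bearing product helps the ribosome through difficult peptide bonds, had 1251 and 1233 normalized counts in control hearts and 1384 and 1370 in knockout hearts, a log2 fold change of 0.15 (95% interval -0.06 to 0.36), and its paralog Eif5a2 had 33.7 to 49.4 normalized counts in the 4 hearts, which overlapped. Of the 6 methyltransferases of elongation factors, 5 were tested and all had adjusted p-values of 0.899 or more. Eef1akmt1 had 145 and 141 in control hearts and 119 and 130 in knockout hearts. Eef1akmt2, Eef1akmt4 and Eef1aknmt overlapped between the groups, with log2 fold changes of 0.11, 0.38 and -0.06. Besides Eif4ebp3, the members below the filter were Eif4a3l1, Eif4a3l2, Eef1akmt3 and Eif4e1b, of which Eif4e1b had 0 reads in all 4 hearts and the other 3 had no more than 2 in any heart.

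The start of the transcript was looked at because the messenger RNAs of several elongation factors are known to begin with a pyrimidine tract (the TOP motif), through which mTORC1 controls their translation. RefSeq promoter windows (GRCm38.p6) were matched by symbol for 50 of the 67 members. A C followed by at least 4 C or T bases, beginning within 5 bases of an annotated start, was found in 12 of the 50 (24%), against 21.2% of all genes with a window. The motif TGATGNAA, the core of the element that ATF4 and C/EBP factors bind, was found on either strand in the windows of 2 of the 50 members (Eef2k and Eif2s3x; 4%), against 4.51% of all genes, and TGATGCAA in 0. The median log2 fold change was 0.06 for the 11 tested members with the tract and 0.06 for the 38 without it. Eef2 and Eif4b fell among the 38, and 17 members, among them Eef1d and Eef1g, had no window. These medians therefore do not compare messenger RNAs with and without a TOP motif. The tract and the motifs are matches of letters in a fixed window, and an annotated start may lie away from the base where transcription begins.

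The stretches that follow show the members with the smallest p beside a pair of genes with long tracts at the start, from 20 bases before the annotated start to 30 bases from it, with every run of C followed by at least 4 C or T bases in capitals.
Eif3c (chr7:126566337-126566386, minus strand): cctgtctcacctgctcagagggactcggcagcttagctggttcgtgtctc
Eif2s2 (chr2:154892877-154892926, minus strand): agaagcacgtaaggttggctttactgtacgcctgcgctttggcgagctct
Eef1a1 (chr9:78481695-78481744, minus strand): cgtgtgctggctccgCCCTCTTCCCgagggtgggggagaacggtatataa
Eef2 (chr10:81176611-81176660, plus strand): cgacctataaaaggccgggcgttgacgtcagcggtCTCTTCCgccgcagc
Eif4b (chr15:102073753-102073802, plus strand): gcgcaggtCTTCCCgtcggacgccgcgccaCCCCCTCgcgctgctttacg
Eif3f (chr7:108934395-108934444, plus strand): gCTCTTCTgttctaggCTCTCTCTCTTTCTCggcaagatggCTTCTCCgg
Eif2s3x (chrX:94212622-94212671, minus strand): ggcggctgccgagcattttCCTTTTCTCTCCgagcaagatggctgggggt
Eif3c and Eif2s2, which had the 2 smallest p-values, hold no such run in these 50 bases. In Eef2 and Eif4b the runs begin outside the 5 bases allowed on either side of the start, so neither gene counts among the 12. Eef1a1 does count, but its run lies before the letters tatataa, which resemble a promoter element (a TATA box). Its run may thus lie upstream of the base where transcription begins. Eif3f, with a long tract at its start, had 450 and 493 normalized counts in control hearts and 411 and 494 in knockout hearts, which overlapped.

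The regulators of these factors, on lists drawn from pathway knowledge, also held no call by limma. Of 8 eIF2α kinases and phosphatase subunits, 1 had an unadjusted p under 0.05, where 3.08% of all tested genes were higher and 3.02% lower at that p: Ppp1r15a (GADD34, which returns phosphatase to eIF2α) had 159 and 146 normalized counts in control hearts and 290 and 194 in knockout hearts, a log2 fold change of 0.63 ± 0.22 (SE; adjusted p = 0.775). Of 20 genes of mTORC1 and its regulators, 3 did, all with both knockouts above both controls. Sesn2, which encodes a leucine sensor that restrains mTORC1, had 48.9 and 36.4 normalized counts in control hearts and 105 and 124 in knockout hearts, a log2 fold change of 1.41 ± 0.25 (SE; adjusted p = 0.318). Rheb, the GTPase that activates mTORC1, had 312 and 325 in control hearts and 431 and 494 in knockout hearts, a log2 fold change of 0.53 (adjusted p = 0.577), and Akt1s1 (PRAS40, an mTORC1 inhibitor) had a log2 fold change of 0.38 (adjusted p = 0.798). Of 14 release, recycling and poly(A) binding factors, 13 were tested and 1 had an unadjusted p under 0.05, the ribosome rescue factor Pelo, with 85.0 and 60.6 in control hearts and 129 and 111 in knockout hearts (log2 fold change 0.73, adjusted p = 0.762). The median log2 fold changes of the 3 lists were 0.08, 0.06 and 0.07, close to the 0.07 of the members.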

How the data were processed

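The deposited table is a signal: a normalized value for each gene, scaled per library by the authors. Per the labels and methods they aligned reads with STAR 2.7.3a to GRCm38.p6, quantified them with Salmon 1.1.0, summed them by gene and normalized them with DESeq2 1.26.0. A second table with their own comparison (fold changes and p-values) was not used. In each library, 100% of values equalled a whole number times that library's scale (tolerance 0.001), which returned counts that are called reads here. As they come from Salmon, they are estimates per gene rather than reads counted directly. Genes with at least 10 in 2 of the 4 libraries were tested with limma 3.58.1 (R 4.3.3, pseudocount 1, mean-variance trend). As alternatives, the recovered reads were fitted with edgeR 4.0.16 and with DESeq2 1.42.0. The fits were tested on simulated data. Ratios used exact permutation. Words of 31 bases were compared among GENCODE vM21 transcripts. Gene positions are those of GRCm38, and start sequences are from RefSeq.

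Named were called members, the eIF4E-binding proteins, Eef1a1, Eef1a2, Eif2s3x, Eif2s3y and up to 4 members per role group with the smallest p. Others named were chosen after their values were seen. The members and lists were chosen with earlier results of these data known. The labels do not say whether hearts shared a litter, so p-values measure the spread between these samples.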

Additional observations from a re-analysis of the deposited data

Results flagged for a closer look

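The libraries of mouse 585H and mouse 586H belong to no comparison because their labels contradict each other, and values there that lay above both controls are given as single values with no group inferred. Among the 6 members at an unadjusted limma p under 0.05, mouse 585H had 1736 normalized counts of Eif3c, 869 of Eif2s2, 7820 of Eef1a1, 11854 of Eef2, 1993 of Eif4b and 1430 of Eif5. Mouse 586H had 1034 of Eif3c, 584 of Eif2s2, 9736 of Eef2, 1678 of Eif4b and 1507 of Eif5, and its Eef1a1 at 6189 lay below both controls. Over the 62 tested members, mouse 585H lay above both controls for 37, below both for 12 and between them for 13. Mouse 586H lay above for 21, below for 21 and between for 20. The shares of all tested genes in these positions were not computed for either library. The counts therefore cannot be read as particular to the members, nor as a group for either mouse.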

How the results depend on the processing

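No member was called lower under any of the 15 alternatives of the fit, and 0 were called higher under 14 of them. DESeq2 on the recovered reads called 1 higher, Eif3c. The median log2 fold change of the members stayed above 0, from 0.065 to 0.104 as each heart was left out, and it was 0.104 without knockout replicate 1. With the replicate number as a block, limma called 0 members and 30 genes in all, against 17 without the block. The labels give no basis for this pairing beyond the replicate number, and their mouse numbers do not follow it throughout. The mouse numbers are consecutive for control replicate 1, knockout replicate 1 and knockout replicate 2, while that of control replicate 2 stands apart. The block thus pairs knockout replicate 2 with a control from outside its run of mouse numbers. The part of this order in the results was not tested. The deviations of hearts with the same replicate number had a correlation of 0.314 over 14522 genes. Over all genes, calls numbered 6 without a mean-variance trend, 24 with robust estimation, 62 with DESeq2 and from 6 to 43 as each heart was left out. Among the 62 tested members, the log2 fold change of 21 changed sign under at least 1 alternative, among them Eef1akmt2, Eef1akmt4, Eef1aknmt, Eef1e1, Eif1, Eif3a, Eif3b, Eif3f, Eif5a2 and Eif6, and that of 41 did not. Leaving out single hearts changed the sign for 21 of them. Without knockout replicate 2, the heart with the high red blood cell signal, the log2 fold change was 0.07 for Eef1d, 0.18 for Eif1a, -0.11 for Eif4e and -0.18 for Eef1akmt2. The share of Eif4ebp1 moved from 0.22 to 0.63 and that of Eef1a2 from -0.37 to -0.17 (log2 ratio, knockout minus control) as each heart was left out.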
